A study of Mastomys natalensis with 4 samples.

Results

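The insulin-like growth factor (IGF) family was followed in the stomach lining of Mastomys natalensis, a rodent of Africa that readily forms tumours of enterochromaffin-like (ECL) cells, endocrine cells of the acid-secreting glands that release histamine. The genes were picked by name and not by their values: Igf1, Igf2, Igf1r, Igf2r, Igfbp2, Igfbp3, Igfbp4, Igfbp5 and Igfbp6, each through every probe set of the mouse U74 array whose annotation gives that gene alone. This rule found 13 probe sets for 8 of the 9 genes, out of 10833 probe sets for 8251 genes in all. The only probe set annotated to Igfbp5 is also annotated to another gene, so Igfbp5 is not reported. Groups were defined by treatment time, with 2 samples after 16 weeks of loxtidine (loxitidine in the labels), a stage labelled neoplasia of ECL cells, and 2 samples after 8 weeks, labelled hyperplasia. Both groups received this blocker of the histamine H2 receptor, and untreated mucosa was not analysed here. Time and lesion stage differ together between the groups and cannot be told apart, and the labels used here give no age, sex or statement that samples came from separate animals.

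IGF1 and IGF2 are secreted peptides related to proinsulin that promote growth and survival through the tyrosine kinase receptor IGF1R. The receptor IGF2R takes up IGF2 for breakdown in lysosomes and also carries lysosomal enzymes. The IGF-binding proteins hold both ligands outside the cell, where they prolong their life and restrain or target their action. In the gut wall, fibroblasts and smooth muscle cells are known makers of IGFs, which act on the epithelium beside them.

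Genes of neighbouring tissues set samples apart, and for several of them 8-week sample 1 stood out. The pancreatic acinar sum was instead highest in 16-week sample 2 (6497) and lowest in 8-week sample 2 (747.2). Tff3, a peptide of intestinal goblet cells, read 15.7 and 13.2 at 16 weeks, against 492.9 in 8-week sample 1 and 17.8 in 8-week sample 2. The hepatocyte list summed to 156.1 and 164.2 at 16 weeks, against 473.4 in 8-week sample 1 and 145.8 in 8-week sample 2. Its blood protein genes albumin (Alb) and apolipoprotein A-I (Apoa1, also made by intestine) were highest in that sample, at 75.8 and 267, while transthyretin (Ttr) was lowest there, at 25.6. Without Apoa1, its brightest gene, the list summed to 140.5 and 152.6 at 16 weeks, against 206.4 and 134.1 in 8-week samples 1 and 2. Gastrin (Gast), the hormone of G cells in the antrum, was higher in both 8-week samples. Its 3 probe sets read 2.7 and 26.8 in the 16-week samples against 889.1 and 181.8 in the 8-week samples on 161639_f_at, 25.8 and 63 against 328 and 170.1 on 98797_at, and 11.6 and 14.1 against 173.2 and 33.9 on 162472_f_at. The differences were -4.48, the lowest of all tested probe sets, -2.55 and -2.55, none of which passed the threshold (limma adjusted p = 0.301, 0.307 and 0.326). The part of these genes in the IGF family values was not tested, and family results that turn on 8-week sample 1 are given with and without it. Leaving out other samples also turned some signs, as given below. Without that sample the family's median difference was 0.12 and 6 of 10 probe sets had a positive difference, beside 0.24 and 6 of 10 with all samples. Without 16-week sample 1 the median was 0.046.

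None of the IGF family probe sets passed the test between 16 and 8 weeks. Of the 13 probe sets, 10 exceeded the floor intensity of 12.15 on at least 2 of the 4 arrays and were tested, and these represent all 8 genes. On the log2 scale, where 1 unit is a doubling, 6 of the 10 had a positive difference (16 weeks minus 8 weeks) and 4 a negative one, and the median difference was 0.24, beside 0.09 and 56.3% positive over all 7883 probe sets tested. The count past limma's Benjamini-Hochberg adjusted p of 0.05 was 0 of 10, against a background of 0% of all tested probe sets. At an unadjusted limma p under 0.05 the count was 1 of 10, against 14.0% of all tested probe sets. Both 16-week values lay above both 8-week values for 4 of the 10 probe sets, against 28.7% of all, and below both for 1 of the 10, against 20.6% of all. These shares are close to the background and single out no direction for the family.

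The scale between arrays affects the signs. With the arrays brought to a common median the median difference of all tested probe sets was -0.11, and with the bacterial hybridisation controls brought to a common level it was 0.54, with 84.9% of all probe sets positive. The family's median was 0.017 with the first scaling and 0.66 with the second. Of the family probe sets 5 of 10 were positive with the first scaling and 9 of 10 with the second. Differences below are on the deposited scale unless another is named.

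**Figure D1:**
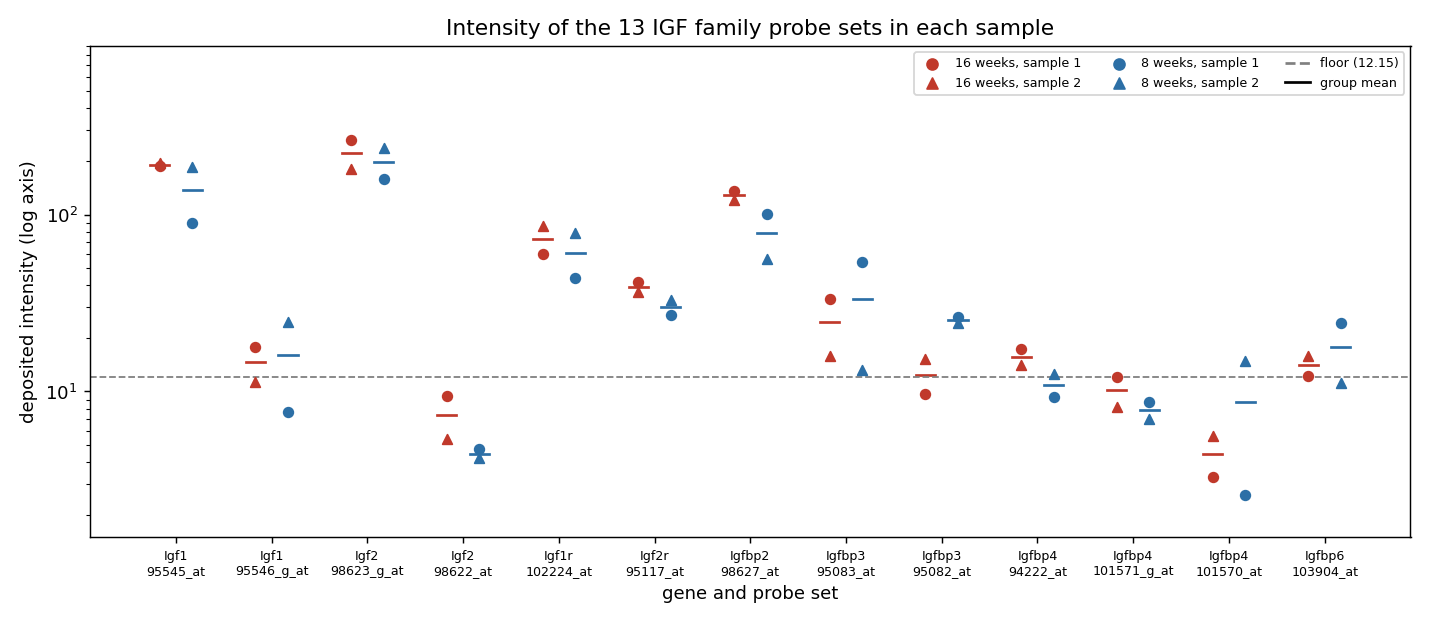
Deposited intensity (log axis) of the 13 IGF family probe sets in each sample, with 16 weeks in red left of 8 weeks in blue, sample 1 as a circle, sample 2 as a triangle, a short line at each group's mean and the floor of 12.15 dashed. Mouse probes bind the Mastomys transcripts unequally, so heights are comparable only within a probe set. The widest gaps within a group stand at 8 weeks, as for Igfbp3 95083_at at 53.8 and 13.2.

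Of the ligands, Igf1 was measured by 2 probe sets. The brighter, 95545_at, read 188 and 195.8 in the 16-week samples, against 89.6 and 185.2 in the 8-week samples. The 16-week samples and 8-week sample 2 lay together, and 8-week sample 1 lay well below them. The means were 191.9 ± 5.5 at 16 weeks and 137.4 ± 67.6 at 8 weeks (SD, n = 2 each), and the log2 difference was 0.57 ± 0.40 (SE; 95% interval -0.45 to 1.60; limma adjusted p = 0.530). Without 8-week sample 1 the difference was 0.05. The dimmer Igf1 probe set, 95546_g_at, whose suffix marks probes shared by related transcripts, read 17.9 and 11.3 in the 16-week samples against 7.7 and 24.6 in the 8-week samples, with 1 sample of each group under the floor. Its difference was -0.23 ± 0.43, of opposite sign to the first, and turned positive (0.09) with the hybridisation controls at a common level. It was also positive without 8-week sample 2 (0.28) and without 16-week sample 2 (0.05). Both Igf1 probe sets shared 1 feature, a lower value in 8-week sample 1 than in 8-week sample 2.

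Igf2, the ligand most active in fetal growth, gave no separation of the groups. Its brighter probe set, 98623_g_at, read 264.6 and 182 in the 16-week samples, against 159.3 and 237.8 in the 8-week samples. The groups overlapped, the lowest value was again that of 8-week sample 1, and the difference was 0.17 ± 0.34 (95% interval -0.69 to 1.04; limma adjusted p = 0.823). The sign was negative with arrays set to a common median (-0.05), without 8-week sample 1 (-0.12) and without 16-week sample 1 (-0.10). The other Igf2 probe set, 98622_at, read between 5.4 and 9.4 at 16 weeks and between 4.2 and 4.7 at 8 weeks, under the floor on all 4 arrays, and was not tested. A dim mouse probe set does not show that the Mastomys transcript is missing.

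Neither receptor passed the test. Igf1r, the signalling receptor of both ligands, read 60.3 and 86.1 in the 16-week samples, against 43.6 and 78.3 in the 8-week samples. The ranges overlapped, and the difference was 0.30 ± 0.39 (95% interval -0.69 to 1.29; limma adjusted p = 0.727). Without 8-week sample 1, the lowest of the 4, it was -0.12. Igf2r, the uptake receptor of IGF2, read 41.6 and 36.6 in the 16-week samples, against 27.1 and 32.8 in the 8-week samples, so that both 16-week values lay above both 8-week values. Its difference was 0.39 ± 0.25, or 1.31-fold (95% interval of the fold 0.837 to 2.05; limma adjusted p = 0.508), and between 0.25 and 0.53 with any of the 4 samples left out. Of the ligand and receptor genes Igf2r had the narrowest interval, and a doubling lay just inside it.

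Among the binding proteins, Igfbp2 had the largest positive difference of the 10 tested probe sets. This binding protein, which circulates and also attaches to cell surfaces, read 136.3 and 120.6 in the 16-week samples, against 101.3 and 56 in the 8-week samples. Both 16-week values exceeded both 8-week values, with means of 128.5 ± 11.1 and 78.7 ± 32.0 (SD, n = 2 each). The log2 difference was 0.77 ± 0.36, or 1.70-fold higher at 16 weeks from means of log2 values (95% interval of the fold 0.903 to 3.21). It did not pass (limma adjusted p = 0.394). The sign was positive with every scaling tried, from 0.55 on a common median to 1.30 on the hybridisation controls. Without 8-week sample 2, the lowest, the difference was 0.34, and without 8-week sample 1 it was 1.20.

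Igfbp3, the binding protein that carries most IGF in blood, gave different pictures on its 2 probe sets. On 95082_at it read 9.7 and 15.2 in the 16-week samples, against 26.3 and 24.3 in the 8-week samples. Both 16-week values lay below both 8-week values, and 1 of them lay under the floor. The difference of -0.90 ± 0.25 (95% interval -1.54 to -0.25) had the smallest unadjusted p of the family (0.0162), ranked 395 of 7883 probe sets, with a limma adjusted p of 0.324. It ranged from -1.06 to -0.73 with a sample left out and was -0.45 on the hybridisation controls. The floor makes the difference of -0.90 smaller than the measured gap.

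On the second Igfbp3 probe set, 95083_at, the samples of a group differed more than the groups did. It read 33.5 and 15.8 in the 16-week samples, against 53.8 and 13.2 in the 8-week samples. Sample 1 exceeded sample 2 in each group, 2.12-fold at 16 weeks and 4.08-fold at 8 weeks. The groups overlapped fully, and the difference was -0.21 ± 0.76 (95% interval -2.15 to 1.73; limma adjusted p = 0.904). The sign was positive on the hybridisation controls (0.25), without 8-week sample 1 (0.80) and without 16-week sample 2 (0.33). Since the 2 probe sets disagree, no single value is given for Igfbp3.

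Igfbp4, a binding protein that mainly restrains IGF action, was dim on all 3 of its probe sets. The one tested, 94222_at, read 17.3 and 14.1 in the 16-week samples, against 9.3 and 12.6 in the 8-week samples, a difference of 0.34 ± 0.25 that the floor makes smaller than the measured gap (limma adjusted p = 0.546). Its groups did not overlap. The others, 101571_g_at and 101570_at, read at most 12.1 at 16 weeks and at most 14.8 at 8 weeks, and were not tested. Igfbp6, which prefers IGF2 over IGF1, read 12.3 and 15.8 in the 16-week samples, against 24.3 and 11.2 in the 8-week samples. Both 16-week values lay between the 8-week values. The difference was -0.30 ± 0.40 (limma adjusted p = 0.742), or 0.20 without 8-week sample 1.

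**Figure D2:**
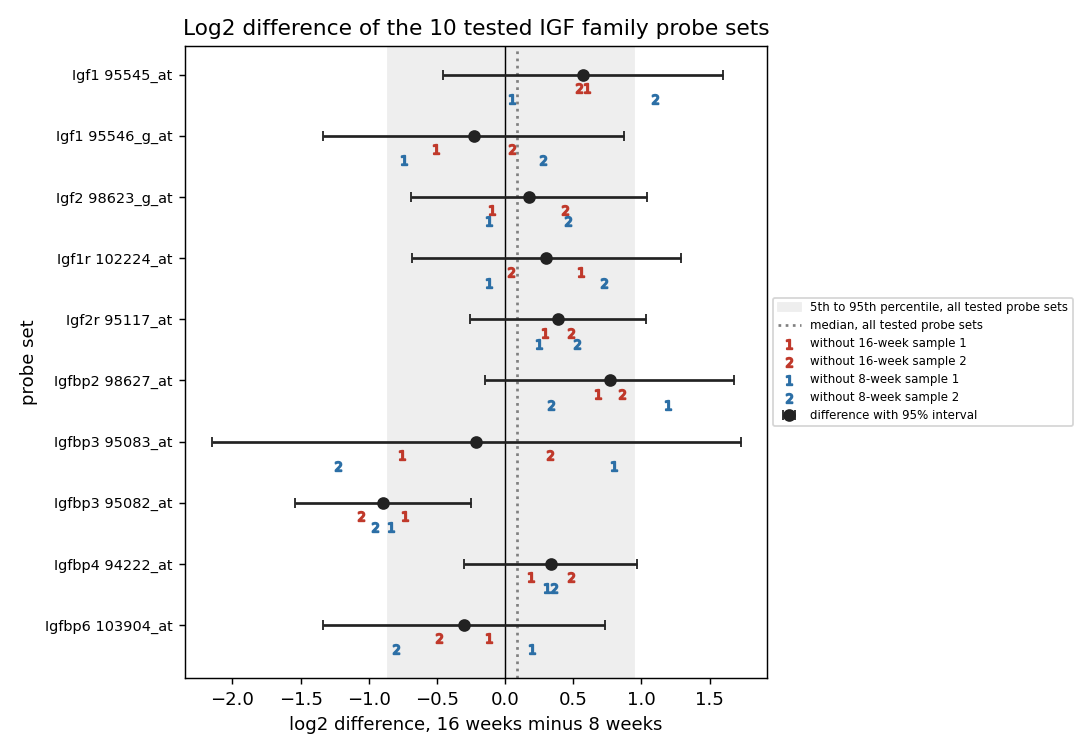
Log2 difference, 16 weeks minus 8 weeks, of the 10 tested IGF family probe sets (points) with the 95% interval from limma (bars), and the difference with 1 sample left out (digits, red for a 16-week and blue for an 8-week sample). The grey band spans the 5th to 95th percentile (-0.86 to 0.94) of all 7883 tested probe sets. The interval leaves out 0 for Igfbp3 95082_at alone, before adjustment over all probe sets.

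Within the 8-week group the family split largely by role, with Igfbp4 as an exception. In sample 1 over sample 2 the log2 ratio was negative for all 5 tested ligand and receptor probe sets: -1.05 and -1.02 for the 2 of Igf1, -0.58 for Igf2, -0.84 for Igf1r and -0.28 for Igf2r. It was positive for 4 of the 5 tested binding protein probe sets, 0.86 for Igfbp2, 2.03 and 0.11 for the 2 of Igfbp3 and 1 for Igfbp6, and it was -0.05 for Igfbp4. Over all tested probe sets the median of this ratio was -0.14, with a 5th to 95th percentile of -0.99 to 0.79. Within the 16-week group no such order appeared. There the ratio of sample 1 over sample 2 was 0.54 for Igf2, -0.51 for Igf1r, 1.08 and -0.32 for the Igfbp3 probe sets and -0.36 for Igfbp6. The gap between samples was larger at 8 than at 16 weeks for 8 of the 10 probe sets, against 49.4% of all tested probe sets, with median gaps of 0.34 at 16 weeks and 0.85 at 8 weeks, beside 0.32 at 16 weeks and 0.32 at 8 weeks over all. A ratio of 1 sample over another has no replicate, and the role pattern was noticed in the data, so it is a description of these samples.

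**Figure D3:**
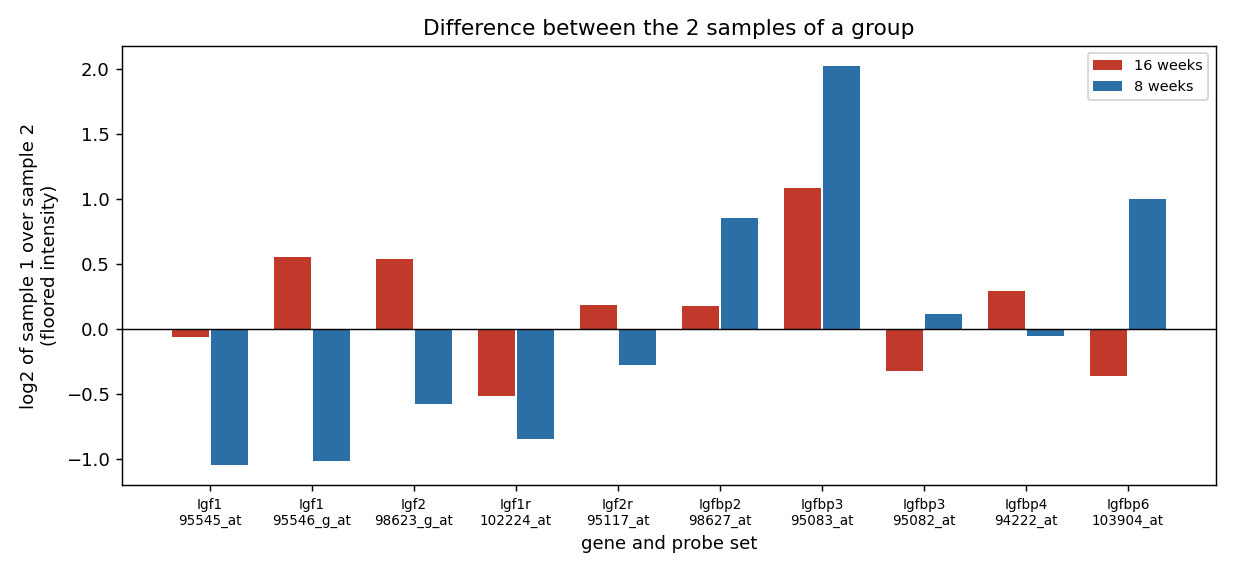
Log2 ratio of sample 1 over sample 2 within the 16-week group (red) and within the 8-week group (blue) for the 10 tested IGF family probe sets, from intensities set to at least the floor. At 8 weeks the Igf1, Igf2, Igf1r and Igf2r bars point down (-1.05 to -0.28), and those of Igfbp2, Igfbp3 and Igfbp6 point up (0.11 to 2.03). The 8-week Igfbp4 bar points slightly down (-0.05).

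The markers of the cells known to make IGFs were set beside the family. The fibroblast and connective tissue list, with 12 of its 13 genes tested, had 6 genes positive, 6 negative and a median difference of -0.02, and its summed intensity was 2520 and 2420 in the 16-week samples, against 3740 and 3261 in the 8-week samples. That sum was led by collagen III (Col3a1), at 585.8 and 508.9 against 1949 and 1280. Without Col3a1, left out after its values were seen, the sums overlapped, at 1935 and 1911 in the 16-week samples against 1792 and 1981 in the 8-week samples. Members of the list lay on both sides. Collagen I chain Col1a1 read 178.3 and 177.6 against 267.6 and 232.4, and the PDGF receptor of fibroblasts (Pdgfra) 176.3 and 134 against 385.8 and 281.7. The other collagen I chain, Col1a2, read 949.7 and 1001 in the 16-week samples against 540 and 852.1 in the 8-week samples. Its difference was 0.52 ± 0.31, or 0.19 without 8-week sample 1. The matrix genes decorin (Dcn) and periostin (Postn) gave 0.68 ± 0.23 and 0.82 ± 0.25. The smooth muscle list had 6 of 8 tested genes negative, a median of -0.75 and sums of 1807 and 1740 in the 16-week samples, against 3387 and 2923 in the 8-week samples. Of its genes, Actg2, Cnn1 and Smtn gave -0.90, -0.82 and -2.50, while Tpm2 (0.31) and Des (0.08) were positive. No gene of either list passed limma's adjusted threshold. Without its brightest gene, Actg2, the smooth muscle sum was 958.3 and 873.8 in the 16-week samples, against 1601 and 1485 in the 8-week samples. Whether the stromal share bears on the family was not tested. In whole mucosa, fewer cells of a type and less RNA per cell cannot be told apart.

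Markers of the labelled tissue, acid-secreting mucosa, were read in all 4 samples. The proton pump subunit Atp4a read 4850 and 4034 in the 16-week samples against 4442 and 5304 in the 8-week samples, Atp4b 915.3 and 634 against 1091 and 1701, and chromogranin A (Chga), a protein of endocrine granules, 299.4 and 231 against 141.2 and 241.7. Of the 8 tested tissue markers 2 had a positive difference, Chga among them, and 6 a negative one. Their median was -0.20, and none passed. Pancreatic acinar genes, represented here by 4 of the 8 listed, summed to 2038 and 6497 in the 16-week samples, against 3465 and 747.2 in the 8-week samples. All 4 had a positive difference, with a median of 0.96, and none passed. Carboxyl ester lipase (Cel) read 1241 and 1981 against 1062 and 279.3 without overlap, and the other 3 genes overlapped between the groups. The endothelial, macrophage and adipocyte lists had medians of 0.38, -0.14 and -0.11, with 0 genes past the threshold in each.

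**Figure D4:**
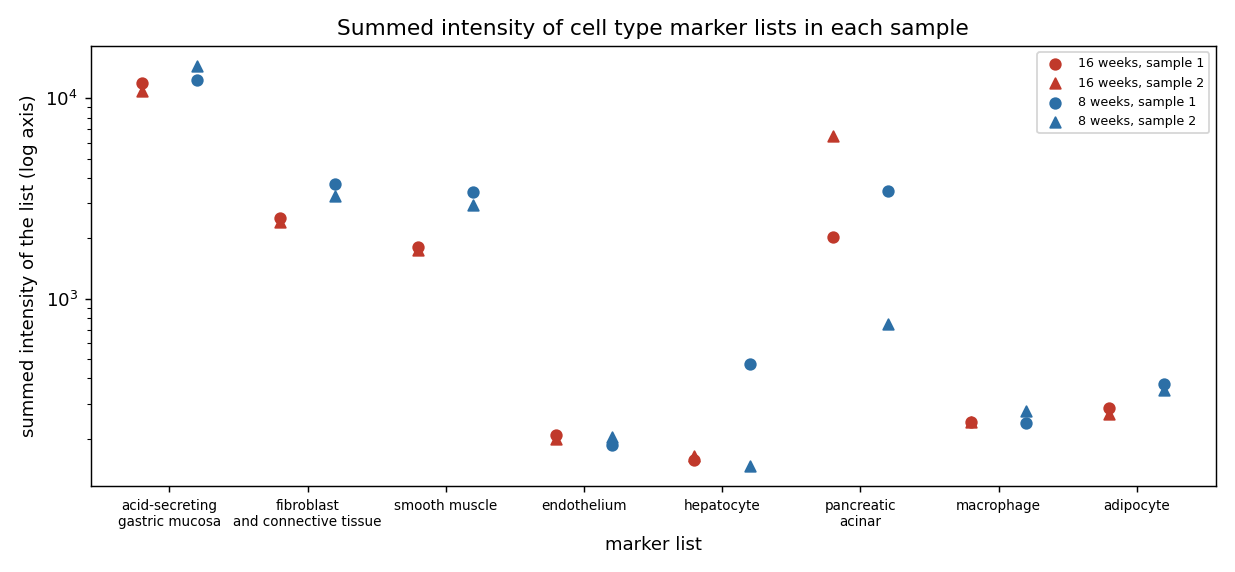
Summed deposited intensity (log axis) of 8 cell type marker lists in each sample, 1 probe set per gene, with 16 weeks in red left of 8 weeks in blue. The smooth muscle sum lies lower in both 16-week samples (1807 and 1740 against 3387 and 2923). So does the fibroblast sum with Col3a1 but not without it (then 1935 and 1911 against 1792 and 1981). The hepatocyte sum of 8-week sample 1 lies above the other samples, at 473.4, or 206.4 without Apoa1.

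Other genes of IGF and insulin signalling showed as little separation. Of 61 listed genes 47 were found, with 70 probe sets, of which 44 for 36 genes were tested. A positive difference was seen for 29 probe sets and a negative one for 15, with a median of 0.17 that became -0.03 on a common median, and 0 passed limma's adjusted threshold. At an unadjusted limma p under 0.05 the count was 7 of 44 (15.9%), near the 14.0% of all tested probe sets. Both 16-week values lay above both 8-week values for 16 of the 44 (36.4%, against 28.7% of all), and below them for 8 (18.2%, against 20.6%).

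At the head of the pathway, the insulin receptor (Insr), which also forms hybrids with IGF1R, read 28.2 and 31.9 in the 16-week samples, against 22.6 and 24 in the 8-week samples, without overlap (0.36 ± 0.24; limma adjusted p = 0.508). The docking protein Irs2, which links both receptors to PI3 kinase, read 20.2 and 15.9 against 6.5 and 18.8 (0.25 ± 0.32), and Irs1 read at most 2.6 on any array and gave no measurement. Grb10, an adaptor that dampens both receptors, gave -0.27 ± 0.42 and -0.09 ± 0.24 on 2 tested probe sets, both positive (0.26 and 0.20) on the hybridisation controls.

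The pathway probe sets with the smallest p among positive differences were Pdk1, Eif4ebp1, Igf2bp1 and Inpp5d. Pdk1, the mitochondrial kinase that restrains pyruvate oxidation and not the PI3 kinase effector Pdpk1, read 41.1 and 31.1 in the 16-week samples, against 17.3 and 17.7 in the 8-week samples (1.03 ± 0.26; limma adjusted p = 0.309). The pathway counts given above include this Pdk1 probe set. Eif4ebp1, a brake on translation that mTOR releases, read 20.8 and 26.9 against 5.8 and 12.5 (0.94 ± 0.26; limma adjusted p = 0.320). Igf2bp1, an RNA-binding protein of Igf2 mRNA, read 19.2 and 30.6 in the 16-week samples, against 2.8 and 5.8 in the 8-week samples, both under the floor, and was at least 1.99-fold higher at 16 weeks (limma adjusted p = 0.329). Inpp5d, a lipid phosphatase of blood cells, read 27.4 and 58.6 against 15.9 and 20.1 (1.16 ± 0.43). Each of these 4 had both 16-week values above both 8-week values, which a choice by smallest p favours.

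Those with the smallest p among negative differences were Mtor, Foxo3, Eif4ebp2 and Cdkn1c. The growth kinase Mtor gave opposite signs on its probe sets: 103309_at read 12.5 and 7.9 in the 16-week samples, against 31.1 and 19.9 in the 8-week samples (-1.01 ± 0.31; limma adjusted p = 0.326), while 95302_at read 92.5 and 88.6 against 66.8 and 86.6 (0.25 ± 0.26). Foxo3 is a transcription factor that insulin signalling shuts out of the nucleus. It read 7.4 and 11 at 16 weeks, both under the floor, against 14.7 and 25.1 at 8 weeks. With values raised to the floor it was 1.58-fold lower at 16 weeks, a difference of -0.66 ± 0.33 (limma adjusted p = 0.422). On the hybridisation controls the difference was -0.30. Eif4ebp2 gave -0.57 ± 0.30 on 94353_at and 0.21 ± 0.32 on 101072_at. The cell cycle inhibitor Cdkn1c, an imprinted neighbour of Igf2 in the mouse genome, read 43.2 and 33.2 against 55.5 and 49.8 (-0.47 ± 0.26), with a positive sign (0.05) on the hybridisation controls.

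**Figure D5:**
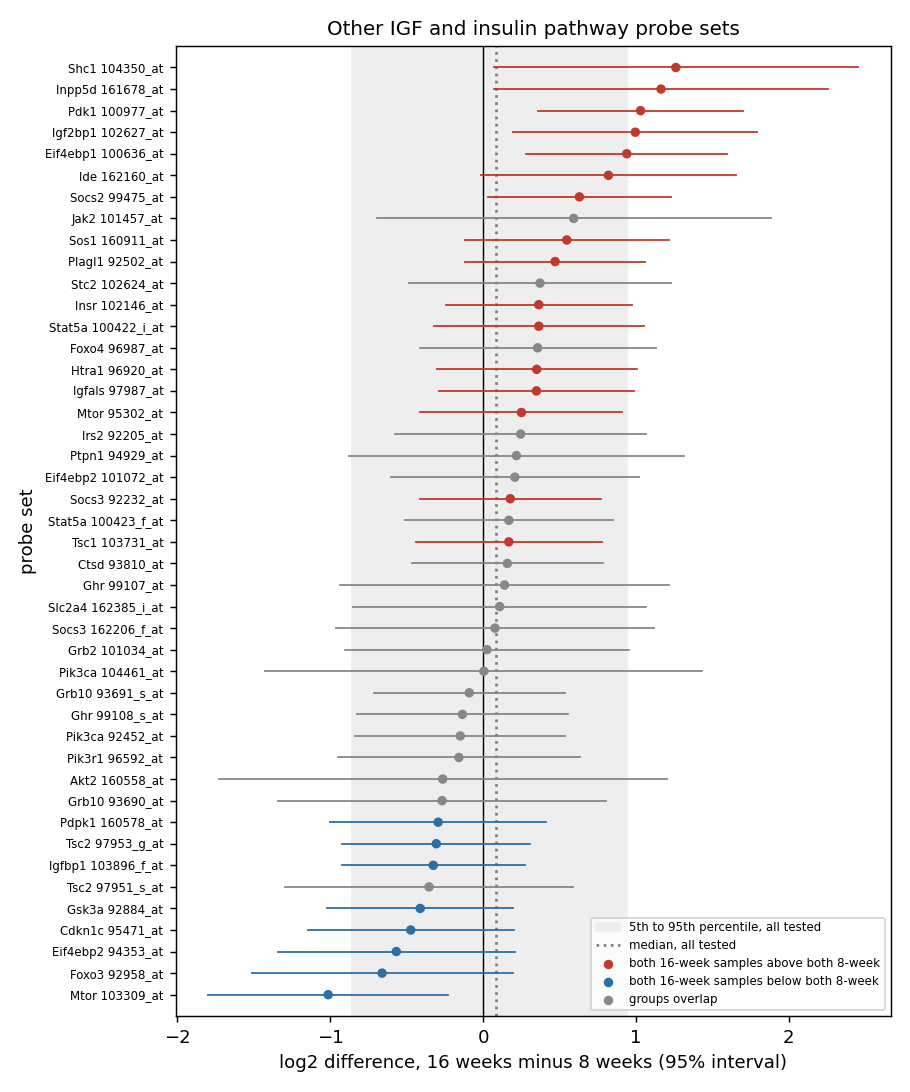
Log2 difference, 16 weeks minus 8 weeks, of the 44 tested probe sets of other IGF and insulin pathway genes, with 95% intervals from limma, red where both 16-week samples lay above both 8-week samples, blue where both lay below, grey where the groups overlap. The grey band spans the 5th to 95th percentile of all tested probe sets, and the differences run from -1.01 (Mtor 103309_at) to 1.26 (Shc1).

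Genes whose values across the 4 samples most resembled those of the family were sought among 6986 other tested probe sets, by the Euclidean distance between log2 profiles centred on their means. Closest to Igfbp2, the family probe set with the smallest p among positive ones above the floor on all arrays, were Nf2 (distance 0.08), Prss32 (0.09) and Fbxw7 (0.10), against a median distance of 1.17. Nf2, a tumour suppressor that ties membrane proteins to the cytoskeleton, read 38.2 and 35.5 in the 16-week samples, against 30.2 and 16.8 in the 8-week samples. Closest to Igfbp3 95083_at were Ptp4a3 (0.26), Psmb9 (0.29) and Adcy3 (0.39), against a median of 1.83. Psmb9, a subunit of the immunoproteasome, read 27.3 and 11.1 in the 16-week samples, against 53.1 and 12.3 in the 8-week samples, so that sample 1 exceeded sample 2 in each group, as on that Igfbp3 probe set. With 4 samples and so many candidates, a close profile is no sign of a shared function.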

How the data were processed

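Total RNA of gastric mucosa was hybridised to Affymetrix mouse U74 arrays, 1 per sample, per the labels. The authors deposited 1 intensity per probe set and sample on a linear scale. The computation and scaling of these values are not given in the sources used here. Trimmed means of the arrays, 2% off each end, lay within 4.76% of their mean, so the deposited scale was kept. Values under a floor (the median over arrays of the 40th percentile, 12.15) were raised to it before taking log2. The 7883 probe sets that exceeded it on at least 2 of 4 arrays were tested together with limma 3.58.1 (R 4.3.3; lmFit, eBayes, 2-sided, Benjamini-Hochberg, threshold 0.05), without the 66 control probe sets. An exact permutation test cannot go below p = 0.333 with 2 against 2 samples. The labels do not state separate animals, so the p-values measure only a spread between samples that may be technical, and the number of arrays limits their precision. Each sample carries a lot label of its own, so lot and sample cannot be told apart. Median intensities were 19.2 and 18.9 at 16 weeks and 15.4 and 17.3 at 8 weeks, with 55.3% to 62.4% of probe sets above the floor.

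Gene names are those of the platform annotation (mouse): of 12422 probe sets 10833 had 1 symbol, 396 several and 1193 none. Marker lists used the brightest probe set of a gene. All family genes were named. Of the pathway list, the 4 probe sets with the smallest p in each direction and Insr, Irs1, Irs2 and Grb10 were named. Of the markers a short set was named, and the 3 nearest profiles of 2 family probe sets. Tff3, Shc1, Tpm2, Des and the second probe sets of Mtor and Eif4ebp2 were named after their values were seen. Members and lists were chosen with earlier results of these data known. The scripts were tested on simulated data. No sequence or genome was used. Alternatives covered the scale, floor, filter, prior, replicate block, probe set choice and each sample left out.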

Additional observations from a re-analysis of the deposited data

How the results depend on the processing

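No IGF family or pathway probe set passed under any of the 12 planned kinds of alternative, and over all probe sets none passed except 22 of 12422 with no filter on dim probe sets. Of 100 values of the 10 tested family probe sets under the processing alternatives 95 kept their sign, as did 32 of 40 with a sample left out. Many of the 100 could not turn, since the filter, prior, replicate block and probe set choice leave a difference unchanged. Only changes of scale, floor or pseudocount could turn a sign there. The family's median difference, 0.24 as reported, was 0.66 with the hybridisation controls at a common level, 0.017 on a common median, 0 with no filter on dim probe sets, and 0.046 (without 16-week sample 1) to 0.39 with a sample left out. The pathway median was then 0.61, and -0.032 on a common median, 0 with no filter, and 0.075 to 0.37 with a sample left out. With the hybridisation controls at a common level the sign turned for Igf1 95546_g_at (0.087), Igfbp3 95083_at (0.25), Igfbp6 (0.10), Grb10 (0.26 and 0.20), Cdkn1c (0.055), Col1a1 (0.041), Atp4a (0.39) and Adcy3 (0.064). On a common median it turned for Igf2 (-0.047), after quantile normalization for Atp4a (0.12), with the lower floor for Igf1 95546_g_at (0.047) and Grb10 93691_s_at (0.067), and with a pseudocount of 16 for Grb10 93691_s_at (0.016). With each sample left out in turn the difference ran from -0.74 to 0.28 for Igf1 95546_g_at, from -0.12 to 0.72 for Igf1r, from -0.12 to 0.46 for Igf2, from -1.23 to 0.80 for Igfbp3 95083_at and from -0.80 to 0.20 for Igfbp6. It ran from -0.069 to 0.56 for Irs2, from -0.83 to 0.29 and -0.22 to 0.038 for the Grb10 probe sets, from -1.99 to 0.087 for Alb, from -4.28 to 0.18 for Apoa1, from -1.15 to 0.68 for Adcy3, from -1.54 to 0.57 for Psmb9 and from -1.45 to 0.66 for Ptp4a3. The turned sign came without 8-week sample 1 for Igf1r, Irs2, Alb, Apoa1 and Igfbp6, among others. For Igf2 and Igfbp3 95083_at it also came without a 16-week sample. For Igf1 95546_g_at it came only without 8-week sample 2 or 16-week sample 2. The replicate numbers have no stated meaning, and the correlation of same-numbered deviations was -0.05. In this balanced layout the replicate block cannot change a difference, so the family median of 0.24 under it was fixed in advance. With the block 0 probe sets passed. Causes of these changes were not tested.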

Other observations

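Relatives of the family outside the studied genes, named after their values were seen, read as follows. Igfbp1, a binding protein secreted mainly by liver, read 6.6 and 7.2 at 16 weeks on 103896_f_at, both under the floor. At 8 weeks it read 16.1 and 14.4. With values raised to the floor it was 1.25-fold lower at 16 weeks, a difference of -0.33 ± 0.23 (limma adjusted p = 0.540). Its other probe set, 103897_r_at, was not tested and lay the other way, at 10.6 and 13.3 in the 16-week samples against 1.8 and 2.6 in the 8-week samples. Igfals, the acid-labile subunit that joins IGF and Igfbp3 in blood, read 17.8 and 16.4 in the 16-week samples against 8.5 and 14.8 in the 8-week samples on 97987_at (0.35 ± 0.25; limma adjusted p = 0.536). Igfbp7, a binding protein of low IGF affinity found in vessel walls, read 6.9 and 3.5 in the 16-week samples against 17.4 and 7.7 in the 8-week samples and was not tested.

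Insulin itself, the hormone of pancreatic beta cells, was bright in a single library and on only 1 of its probe sets. The Ins2 probe set 100150_f_at read 2.9 and 8.4 at 16 weeks, against 250.3 in 8-week sample 1 and 3.3 in 8-week sample 2, and with 1 array above the floor it was not tested. A second Ins2 probe set, 161849_r_at, read between 2.9 and 4.2 on all 4 arrays, and the beta cell peptide Iapp between 2.5 and 3.3. The intestinal gene Akp3 read 13.5 and 9.6 in the 16-week samples, against 205.4 in 8-week sample 1 and 8.9 in 8-week sample 2, and Fabp2 read 3.7 and 5.9, against 37.6 and 1.9 in the same order. With values raised to the floor, 5 of the 10 tested family probe sets were lowest in 8-week sample 1 alone. Another 3 were highest there. The lowest were the brighter Igf1 and Igf2 probe sets and those tested for Igf1r, Igf2r and Igfbp4. The highest were both Igfbp3 probe sets and that of Igfbp6. That array had the lowest median intensity of the 4, at 15.45, and the share of all probe sets lowest there was not counted. What sets it apart was not tested.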
